A study of Mus musculus with 4 samples.

Results

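The splicing factor genes described here are the 69 protein-coding genes of the mouse RefSeq annotation whose symbols start with Srsf (11 genes), Hnrnp (21), Sf3a or Sf3b (9), Snrp (12), Prpf (13) or U2af (3), out of 21887 protein-coding genes outside mitochondrial DNA. Open chromatin was read from islands, stretches of the genome where DNase-seq reads pile up, and an island was given to a gene when the nearest end of any protein-coding gene, within 50 kb, was one of that gene's ends. Where an island covered the ends of several genes, each of them received it. By this rule 80 of the 16584 islands of the table belonged to splicing factor genes. The cells were lymphoid tissue inducer (LTi) cells, innate lymphoid cells that start the formation of lymph nodes and Peyer's patches, sorted from Peyer's patches of C57BL/6 mice as CD127+ CCR6+ cells without lineage markers, KLRG1, NK1.1 or NKp46. There were 2 libraries from Tcf7+/+ control mice and 2 from mice with floxed Tcf7 (Tcf7fl/fl) and a Cre that deletes it, Tcf7 being the gene of the transcription factor TCF-1. A library was made from 300 cells, treated for 5 minutes at 37 °C with DNase I (0.3 U). The sources used here state neither the age of the mice nor how many were pooled for a library.

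For each island the table holds a peak-side and a control-side read count, and its header names no genotype or library for either. The genotypes are therefore not compared, and no value below has replicates. Over all islands the peak side held 425134 reads and the control side 645087. The fold is peak-side reads over control-side reads multiplied by 0.345, the 1 factor in the authors' deposited table, and the intervals given with folds are exact (Clopper-Pearson) 95% counting intervals. They cover counting error only, because each side has 1 count and no replicate. PCR copies of 1 molecule could not be told from separate molecules, so the intervals may be too narrow. An island counts as called at an FDR under 0.05 in the authors' deposited table, which holds for 82.3% of all islands and 80.8% of islands at gene ends. The lowest peak-side count in the table was 8, so the lack of an island does not mean closed chromatin. LTi markers had islands at 9 of 10 genes (Ccr6, part of the sorting gate, had none), T cell markers at 1 of 6, B cell markers at 2 of 6, NK and group 1 markers at 1 of 5, myeloid markers at 1 of 5, and epithelial and stromal markers at 5 of 6. The part of other cells in the values below was not tested.

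Splicing removes introns from pre-mRNA in the spliceosome, which is built on each intron from small nuclear ribonucleoproteins (snRNPs) and many further proteins. U2AF proteins bind the end of the intron, SF3A and SF3B hold the U2 snRNP on the branch site, Sm proteins form the ring core of the snRNPs, and PRPF proteins belong largely to the later tri-snRNP and to the catalytic machinery. SR proteins (Srsf genes) and hnRNPs bind exons and introns and decide, often in opposite directions, which splice sites are used, including those of receptor and signalling genes in lymphocytes.

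Nearly all splicing factor genes carried accessible chromatin at their ends. Of the 69 genes, 65 (94.2%) had an island within 50 kb, where 53.9% of all protein-coding genes had one. Islands lay at a gene end, that is within 1 kb of it, for 64 genes (92.8%), against 46.1% of all genes. A called island in the authors' deposited table was present at 58 (84.1%), against 46.3% of all genes. Among other housekeeping groups, cytosolic ribosomal protein genes had islands at 79 of 87 (90.8%) and proteasome subunit genes at 36 of 39 (92.3%), close to the share of the splicing factor genes. By class, 10 of 11 Srsf, 20 of 21 Hnrnp, 9 of 9 Sf3a and Sf3b, 10 of 12 Snrp, 13 of 13 Prpf and 3 of 3 U2af genes had an island. Most genes had a single one: 53 had 1 island, 9 had 2, and Hnrnpu, Sf3b1 and U2af2 had 3.

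The islands sat on start sites. RefSeq gives 81 start sites for 60 of the 69 genes. At 57 of the 60 genes (95%) an island of the gene lay within 1 kb of a start, against 46.5% of all genes with a start. Of the 70 islands of these genes, 58 covered a start, 8 lay downstream of the nearest start and 4 upstream. The islands over a start reached a median of 978 bp upstream of it (interquartile range 557 to 1440) and 1059 bp downstream (575 to 1562), and over all genes these medians were 831 and 946 bp. The accessible stretch was thus roughly centred on the start, as it was elsewhere in the table.

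**Figure D1:**
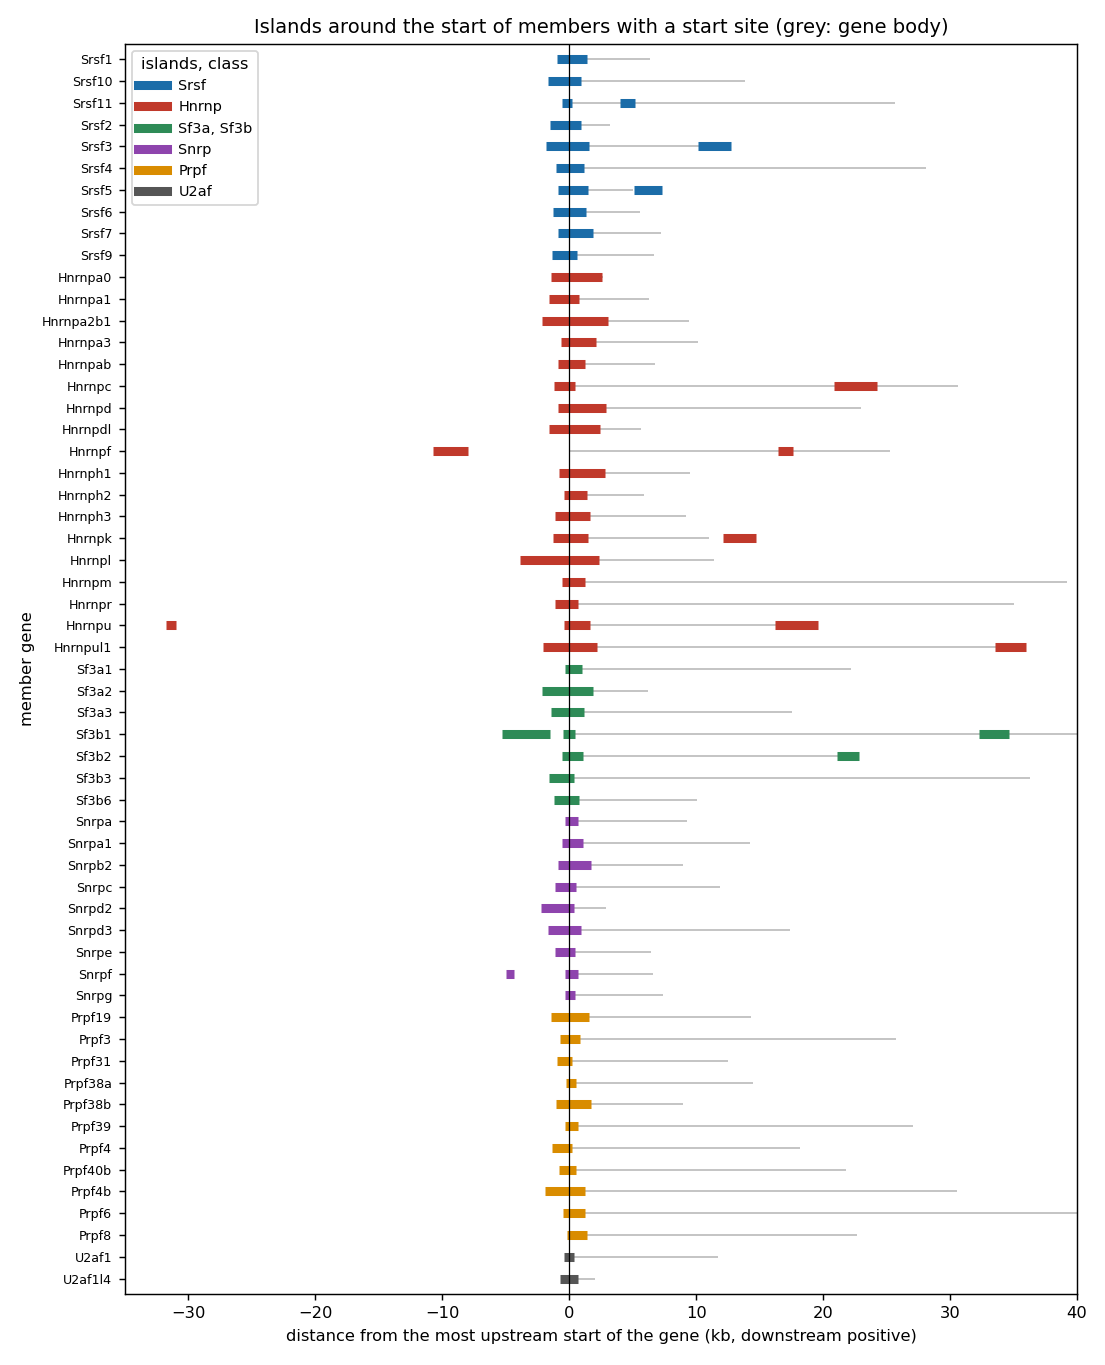
Islands (thick bars, coloured by class) along the distance in kb from the most upstream start of each member with a start site and an island, with the gene body in grey. Most genes have a single island across the start, while genes such as Hnrnpu, Hnrnpul1, Hnrnpc, Sf3b1 and Sf3b2 have a further one inside or at the far end of the gene, and Hnrnpf has none at its most upstream start.

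The 250 bases before the start are shown for 1 gene of each class, the one with the most peak-side reads in an island over a RefSeq start, to show what lies under the strongest islands (RefSeq, GRCm38.p6, written 5′ to 3′ along the gene). Capitals mark letters of any of 7 motifs searched on both strands. These were CCGGAAG, which ETS factors bind, CCAAT for NF-Y and GGGCGG for Sp and KLF factors. AAGATGGCG was searched for YY1 and TGACGTCA as the cAMP response element (CRE). The last were CTTTGAT for TCF and LEF factors, the family of TCF-1, and TATAAA as the TATA box. Motifs may overlap each other.
Srsf5 (chr12:80945249-80945498, + strand): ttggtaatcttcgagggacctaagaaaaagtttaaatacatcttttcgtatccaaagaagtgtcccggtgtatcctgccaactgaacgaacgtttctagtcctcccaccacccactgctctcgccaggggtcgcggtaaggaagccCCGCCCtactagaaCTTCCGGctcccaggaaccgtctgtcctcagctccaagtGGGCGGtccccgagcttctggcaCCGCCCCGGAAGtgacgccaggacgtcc
Hnrnpl (chr7:28810640-28810889, + strand): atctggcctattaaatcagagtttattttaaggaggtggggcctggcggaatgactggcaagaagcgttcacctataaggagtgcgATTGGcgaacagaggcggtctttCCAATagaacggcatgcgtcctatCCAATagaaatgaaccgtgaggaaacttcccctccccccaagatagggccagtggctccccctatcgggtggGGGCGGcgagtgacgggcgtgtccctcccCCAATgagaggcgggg
Sf3a2 (chr10:80798485-80798734, + strand): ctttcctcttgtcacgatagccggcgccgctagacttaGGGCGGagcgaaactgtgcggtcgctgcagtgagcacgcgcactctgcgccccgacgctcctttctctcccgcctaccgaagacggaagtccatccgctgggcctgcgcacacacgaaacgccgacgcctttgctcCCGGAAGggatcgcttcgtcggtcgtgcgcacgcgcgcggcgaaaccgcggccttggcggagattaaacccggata
Snrpd2 (chr7:19149588-19149837, + strand): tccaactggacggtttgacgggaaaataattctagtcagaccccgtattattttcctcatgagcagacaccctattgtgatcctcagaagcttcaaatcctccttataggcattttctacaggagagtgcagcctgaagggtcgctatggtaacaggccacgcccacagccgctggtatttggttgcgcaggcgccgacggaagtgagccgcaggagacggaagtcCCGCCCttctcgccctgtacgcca
Prpf4b (chr13:34875279-34875528, + strand): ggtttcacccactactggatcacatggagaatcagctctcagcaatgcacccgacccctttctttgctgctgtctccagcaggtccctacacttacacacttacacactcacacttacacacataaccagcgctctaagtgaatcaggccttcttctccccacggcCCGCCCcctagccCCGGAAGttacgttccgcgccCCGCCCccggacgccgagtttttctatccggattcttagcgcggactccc
U2af1l4 (chr7:30563090-30563339, + strand): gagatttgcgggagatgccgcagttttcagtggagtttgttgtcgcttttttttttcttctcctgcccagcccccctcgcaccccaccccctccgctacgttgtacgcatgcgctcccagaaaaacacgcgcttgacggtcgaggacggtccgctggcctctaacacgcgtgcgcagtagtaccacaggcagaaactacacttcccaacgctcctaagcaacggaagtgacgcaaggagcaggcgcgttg
Srsf5 has CCGGAAG on both strands and GGGCGG 3 times, Hnrnpl has CCAAT 4 times, and Sf3a2 and Prpf4b each have 1 CCGGAAG. Hnrnpl, Sf3a2 and Prpf4b have GGGCGG as well. Snrpd2 has a single GGGCGG and U2af1l4 has none of the motifs.

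The classes differed in which letters stood before their starts. Of the 81 starts, 72 (at 57 genes) lay under an island of any gene, and the same held for starts of 8102 of the genes in the table. CCGGAAG was found at 6 of 7 Sf3a and Sf3b genes, 4 of 10 Srsf genes, 3 of 9 Snrp genes and 3 of 11 Prpf genes. It was found at 2 of 18 Hnrnp genes and at neither of the U2af genes. Over all genes with a start under an island the share was 17.8%, and over the splicing factor genes it was 31.6%. CCAAT was found at 13 of 18 Hnrnp genes (72.2%), 6 of 11 Prpf genes, 1 of 2 U2af genes and 3 of 9 Snrp genes. It was found at 3 of 10 Srsf genes and 2 of 7 Sf3a and Sf3b genes. The share was 49.1% over the splicing factor genes and 40.1% over all such genes. GGGCGG was present at 9 of 10 Srsf and 14 of 18 Hnrnp genes, and its share over the splicing factor genes was 68.4%, the same as over all such genes. The TCF and LEF letters CTTTGAT were found at 1 gene, Snrpa, against 2.39% of all such genes. TGACGTCA was found at 2 of the 57 genes, Snrpa and Snrpg (all such genes 3.42%). TATAAA was found at 5 (all such genes 5.70%). AAGATGGCG was found at 0, against 1.52% of all such genes. Median GC content before the start, taken over starts and not genes, was 71.6% for U2af (3 starts), 68.4% for Srsf and 68.2% for Hnrnp. It was 59.4% for Sf3a and Sf3b, 57% for Prpf and 54.8% for Snrp starts, against 61.6% for all starts under an island. A match describes the letters in this window and is not a bound site, and with classes of 2 to 18 genes these counts have no test.

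**Figure D2:**
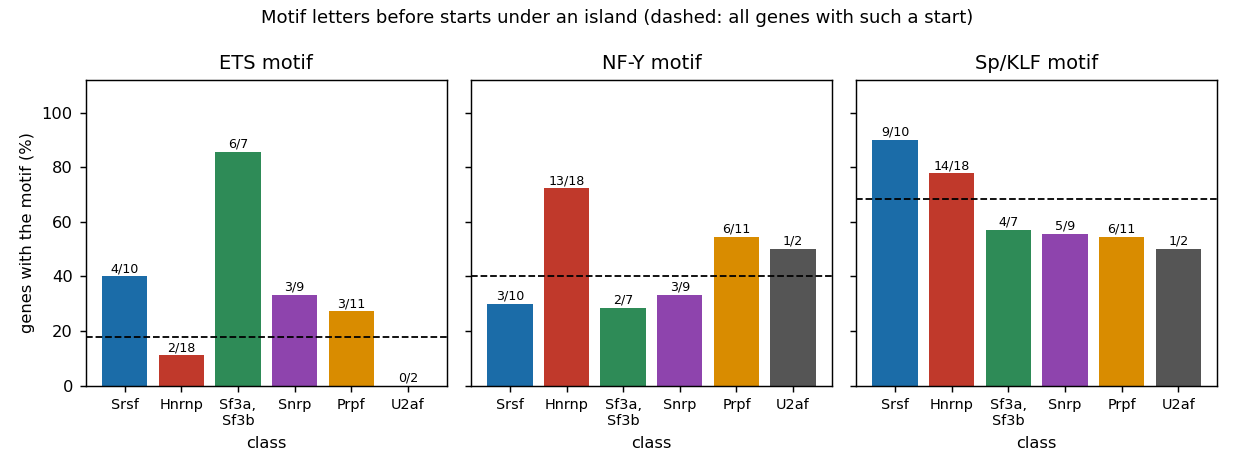
Percent of genes in each class with ETS, NF-Y or Sp/KLF letters in the 250 bases before a start under an island, with counts of genes above the bars and the share over all genes with such a start as a dashed line. The Sf3a and Sf3b class is highest for ETS letters (6 of 7) and the Hnrnp class for NF-Y letters (13 of 18).

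The islands of splicing factor genes were somewhat richer in reads than other islands. The median island had 28.5 peak-side reads (range 9 to 86) and 43.5 control-side reads (5 to 154), against 18 and 27 over all islands. Since 70 of the 80 (87.5%) lay at gene ends, against 55.7% of all islands, gene-end islands are the closer comparison. There the medians were 31 and 47.5 reads against 23 and 37, and 45 of the 70 exceeded the median of all gene-end islands on each side. Width differed little, with a median of 2200 bp against 2000 bp. Over all their islands, ribosomal protein and proteasome genes had medians of 21 and 22 peak-side reads, against 28.5 for the splicing factor genes. Peak-side and control-side reads followed each other across the 80 islands (Spearman rho 0.914, against 0.837 over all islands), a description of 2 columns that share islands and mappability.

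The share of called islands was near that of the table, while folds were lower than over all islands. Of the 80 islands, 66 (82.5%) had a called status in the authors' deposited table, against 82.3% of all islands. The pooled fold was 1.78 (1.69 to 1.87), below the 1.91 (1.90 to 1.92) of all islands, and the median folds were 1.77 and 2.01. At gene ends the pooled fold was 1.77 (1.68 to 1.86), and its interval included the 1.83 (1.82 to 1.84) of all gene-end islands. The counting interval of single islands lay above 1 in 49 of 80, fewer than the 66 called. The matching share of all islands was not computed, so this count cannot be set against the table. A fold under 1 was found in 3 of the 80, against 1.67% of all islands.

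Width and reads differed by class, and the Hnrnp genes led. Their 21 gene-end islands had a median width of 2800 bp and 44 peak-side reads (range 22 to 78), and 80 control-side reads. The 12 Srsf islands came next in width, with 2400 bp and 29 reads. Sf3a and Sf3b islands had 1700 bp and 23.5 reads, Prpf islands 1600 bp and 21 reads, and Snrp islands 1600 bp and 17.5 reads. Per kb, the gaps were smaller, at 15.5 peak-side reads for Hnrnp, 13 for Srsf, 12.9 for Sf3a and Sf3b, 13.1 for Prpf and 16 for Snrp, so the low Snrp counts went with short islands and not with fewer reads per kb. The 4 U2af islands had medians of 31 reads, second to Hnrnp, 1700 bp and 22.5 reads per kb. The lowest Hnrnp gene-end island (22 reads, Hnrnph2) lay above the median of the Snrp and Prpf islands, while the ranges of all classes overlapped.

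**Figure D3:**
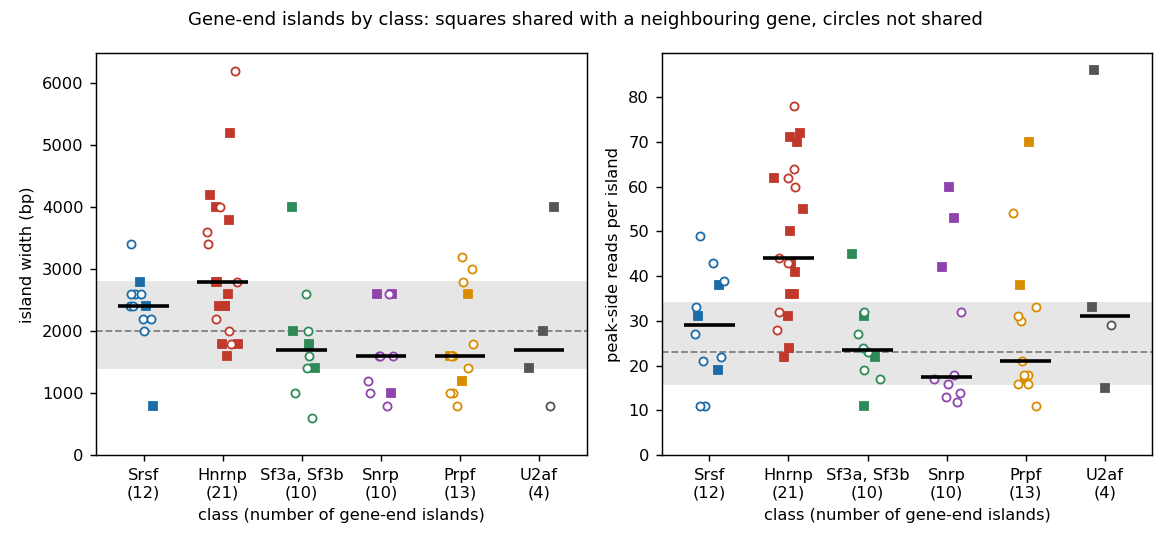
Width in bp (left) and peak-side reads (right) of each gene-end island by class, as squares where the island is shared with another gene and circles where it is not, with class medians as black bars. The grey band and dashed line give the interquartile range and median of all gene-end islands (2000 bp and 23 reads), and most Hnrnp islands lie above that line for reads.

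Many of these islands served a neighbouring gene as well. Of the 80 islands 29 (36.3%) were also assigned to another gene, against 9.23% of all islands with a gene. A shared island can enter a list through either of its genes, so other gene lists are the closer comparison. There the shares were 24.3% for ribosomal protein genes, 23.8% for proteasome subunit genes and 25% for splicing genes outside these prefixes. All 29 shared islands of splicing factor genes lay at gene ends, where they made up 41.4%, against 15.3% of all gene-end islands, each counted once. The share was 13 of 21 for Hnrnp, 3 of 4 for U2af, 4 of 10 for Sf3a and Sf3b, 3 of 10 for Snrp, 3 of 13 for Prpf and 3 of 12 for Srsf. For 22 of the 29 both genes had a start in RefSeq. In 17 of these the nearest starts lay under the island on opposite strands, 3 to 772 bp apart (median 136). Whether such starts pointed apart or towards each other was not checked. Shared islands had a median of 38 peak-side reads and the others 27, against 28 and 22 over all gene-end islands. Among islands that were not shared, the Hnrnp class had the most reads, with a median of 52 over 8 islands. Among shared ones it had 43 over 13, and the 3 Snrp islands had 53. For shared islands the reads of the genes on either side cannot be told apart.

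A pair of these shared islands joined hnRNP genes to heterochromatin protein 1 genes. The Hnrnpa2b1 and Cbx3 starts face each other across a CpG-rich region that is known as a ubiquitous chromatin opening element, used in expression vectors to keep transgenes active. Its island was 5200 bp wide (chromosome 6, 51466801 to 51472000) and held 55 peak-side and 103 control-side reads (fold 1.55, 1.10 to 2.17). The starts lay 722 bp apart. Hnrnpa1 and Cbx5, the related pair, shared an island (chromosome 15, 103238801 to 103241200) of 72 and 94 reads. Its fold was 2.22 (1.61 to 3.05) and the starts lay 545 bp apart. The counting intervals of these folds overlapped. The bases before the Hnrnpa2b1 start, shown because both genes use this region, hold 1 CCAAT box, on the reverse strand.
Hnrnpa2b1 (chr6:51469895-51470144, - strand): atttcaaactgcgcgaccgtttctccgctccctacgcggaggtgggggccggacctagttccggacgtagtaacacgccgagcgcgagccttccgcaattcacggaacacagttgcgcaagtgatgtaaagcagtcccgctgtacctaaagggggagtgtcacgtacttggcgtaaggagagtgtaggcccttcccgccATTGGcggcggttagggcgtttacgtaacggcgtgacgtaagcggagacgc

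Among the hnRNPs, which coat nascent transcripts and often repress splice sites, Hnrnpul1 had the most peak-side reads. Its islands at the start, shared with Axl (71 and 95 reads, fold 2.17, 1.57 to 2.98) and at the far end next to Ccdc97 (31 and 34 reads, fold 2.64, 1.57 to 4.43) gave a pooled fold of 2.29 (1.75 to 3.0). Hnrnpu, a scaffold protein that also organises chromatin, had 43 and 78 reads at the far end of the gene, 28 and 67 over the start and 21 and 23 in an island 29.9 kb beyond the gene. That last island (fold 2.65) was the most distant one assigned to any splicing factor gene, and no island beyond 50 kb had such a gene as its nearest. Of Hnrnpu, Hnrnpul1, Sf3b2, Srsf3 and Srsf5, the genes with a placed start and islands at both ends, Hnrnpu alone had fewer reads over the start than at the far end. Hnrnpl, a repressor of exons whose action in T cells on Ptprc (CD45) is well known, had the widest island of all members, 6200 bp over the start (chromosome 7, 28807001 to 28813200), holding 78 and 154 reads (fold 1.47, 1.10 to 1.94). Its relative Hnrnpll, a regulator of the same CD45 exons, had 24 and 43 reads in 2400 bp (fold 1.62, 0.94 to 2.73). The largest Hnrnp fold in islands at or above the median of 28.5 reads, beside the far island of Hnrnpul1, was that of Hnrnpab (44 and 52 reads, 2.45, 1.60 to 3.74). The smallest were those of Hnrnpk (36 and 80 reads, 1.31, 0.855 to 1.96), Hnrnpdl (62 and 131 reads, 1.37, 0.998 to 1.87) and Hnrnpm (36 and 76 reads, 1.37, 0.897 to 2.07). These intervals overlap that of Hnrnpab.

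Hnrnpf, which binds G-rich RNA together with the hnRNP H proteins, was the 1 gene with islands but none within 1 kb of its ends. RefSeq gives it 4 starts. The most upstream lay under no island. The 2 middle starts lay under an island of 52 and 90 reads (chromosome 6, 117906201 to 117908000, fold 1.68, 1.17 to 2.38), which the rule gives to 4933440N22Rik, a gene inside Hnrnpf. The fourth lay under an island of 16 and 50 reads with a fold of 0.928. Both starts shown here belong to Hnrnpf, the first without an island (50.4% GC) and the second under the 52-read island (70.8% GC).
Hnrnpf (chr6:117900090-117900339, + strand): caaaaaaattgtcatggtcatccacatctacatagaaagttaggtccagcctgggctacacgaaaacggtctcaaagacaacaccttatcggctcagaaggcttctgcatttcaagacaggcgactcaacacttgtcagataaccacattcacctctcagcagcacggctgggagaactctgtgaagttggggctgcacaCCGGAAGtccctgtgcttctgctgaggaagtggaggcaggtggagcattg
Hnrnpf (chr6:117906532-117906781, + strand): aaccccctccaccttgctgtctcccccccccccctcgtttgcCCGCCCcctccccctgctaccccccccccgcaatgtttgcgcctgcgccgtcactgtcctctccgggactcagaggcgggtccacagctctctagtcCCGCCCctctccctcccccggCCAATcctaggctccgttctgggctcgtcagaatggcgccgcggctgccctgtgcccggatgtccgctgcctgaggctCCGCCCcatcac

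SR proteins, which bind exonic enhancers and recruit the early spliceosome, had the lowest pooled fold. Peak-side reads summed over a gene's islands ran from 21 (Srsf9) to 60 (Srsf5) over the 10 genes with one, and their gene-end islands from 11 to 49. The pooled fold of the class was 1.61 (1.41 to 1.84), the lowest of the 6 classes. That interval overlapped those of the other classes, among them Hnrnp at 1.74 (1.61 to 1.88), Sf3a and Sf3b at 1.94 (1.66 to 2.26) and Prpf at 1.93 (1.68 to 2.20). Srsf1, the founding member, had 43 and 83 reads (fold 1.5, 1.01 to 2.20), Srsf10 39 and 65 (1.74, 1.14 to 2.63), and Srsf2 38 and 80 (1.38, 0.911 to 2.05). Srsf3 had 27 and 67 reads over its start (fold 1.17, FDR 0.189 in the authors' deposited table) and 11 and 14 at its far end (fold 2.28). Srsf5 had 49 and 90 reads over its start and 11 and 5 reads in a second island just past its far end, where the fold of 6.38 rests on very few reads. Srsf11 had 19 reads at each of 2 starts, in separate islands. By the authors' deposited table, 12 of the 13 Srsf islands (92.3%) were called, against 82.3% of all islands, a difference that was not tested.

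Islands were present at all genes of the Sf3a and Sf3b prefixes. All 3 Sf3a and all 6 Sf3b genes had an island over or within 1 kb of a gene end. Sf3b1, which encodes the branch-site subunit that is recurrently mutated in myeloid neoplasms, had 27 and 47 reads over its start (fold 1.67), 13 and 26 upstream, and 11 and 5 reads in an island 32278 bp into the gene (chromosome 1, 54992801 to 54995200, fold 6.38). Sf3b2 had 32 and 43 reads at its start and 22 and 38 at its far end, shared with Pacs1. Sf3a1 had 31 and 29 reads (fold 3.10, 1.81 to 5.33), and its neighbour Ccdc157 starts 61 bp away. Sf3a2 had 45 and 86 (fold 1.52, 1.03 to 2.20), so the intervals of these 2 subunits overlap. Sf3b3 had the fewest peak-side reads (11 and 26, fold 1.23, 0.547 to 2.57) and was not called in the authors' deposited table.

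The most peak-side reads in any island of the set lay at a U2AF gene. U2af2, the large subunit that binds the polypyrimidine tract, had 86 and 132 reads in 4000 bp over a gene end shared with Ccdc106 (chromosome 7, 5059001 to 5063000, fold 1.89, 1.42 to 2.50). It also had 12 and 12 reads in a 4600 bp island inside the gene, and 15 and 45 at the other end, next to Epn1, with a fold of 0.967. U2af1, the small subunit that reads the AG at the intron's end, had 29 and 35 reads in 800 bp (fold 2.4, 1.42 to 4.05), and its relative U2af1l4 had 33 and 54 (1.77, 1.11 to 2.78).

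Genes of the snRNP proteins had the lowest class median of peak-side reads, and their reads were uneven. Of the 7 genes for the Sm ring, 6 had an island. Snrpd2 had 60 and 84 reads (fold 2.07, 1.46 to 2.92), Snrpd3 53 and 86 (1.79, 1.24 to 2.55) and Snrpe 32 and 46 (2.02, 1.24 to 3.24). Snrpf had 12 and 23 reads over its start with 9 and 12 further upstream, Snrpg had 18 and 26, and Snrpd1 had 14 and 41 with a fold of 0.990 (0.499 to 1.85). Peak-side reads of genes whose products sit in the same ring thus ran from 14 to 60. The Snrpd2 and Snrpd3 islands were shared with Qpctl and Gucd1, whose reads cannot be told apart from theirs. The 3 shared gene-end islands of the Snrp class held 42 to 60 peak-side reads, and the 7 not shared held 12 to 32. Snrpb, the seventh, had no island, and the nearest of any gene lay 94.2 kb away, assigned to Nop56. Snrpn, its imprinted relative, which is expressed from the paternal allele and is best known from brain, had none over its 4 starts, with the nearest 752 kb away. Of the proteins of single snRNPs, Snrpa (U1) had 42 and 65 reads, Snrpc (U1) 16 and 31, Snrpb2 (U2) 17 and 26 and Snrpa1 (U2) 13 and 18.

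Every Prpf gene had 1 island, over a gene end. Prpf4b, a kinase of the spliceosome, had 54 and 73 reads (fold 2.15, 1.48 to 3.09), Prpf4 38 and 52 (2.12, 1.36 to 3.28) and Prpf19, a ubiquitin ligase that activates the spliceosome, 33 and 58 (1.65, 1.04 to 2.57). Prpf38a had the largest fold among member islands at or above the median reads, at 3.11 (1.79 to 5.40) on 30 and 28 reads in 800 bp. Of the other tri-snRNP genes, Prpf8, the scaffold of the catalytic centre, had 21 and 25, Prpf6 18 and 36, Prpf31 17 and 29 and Prpf3 16 and 40. Prpf3, Prpf6 and Prpf18 (11 and 25) were not called in the authors' deposited table.

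**Figure D4:**
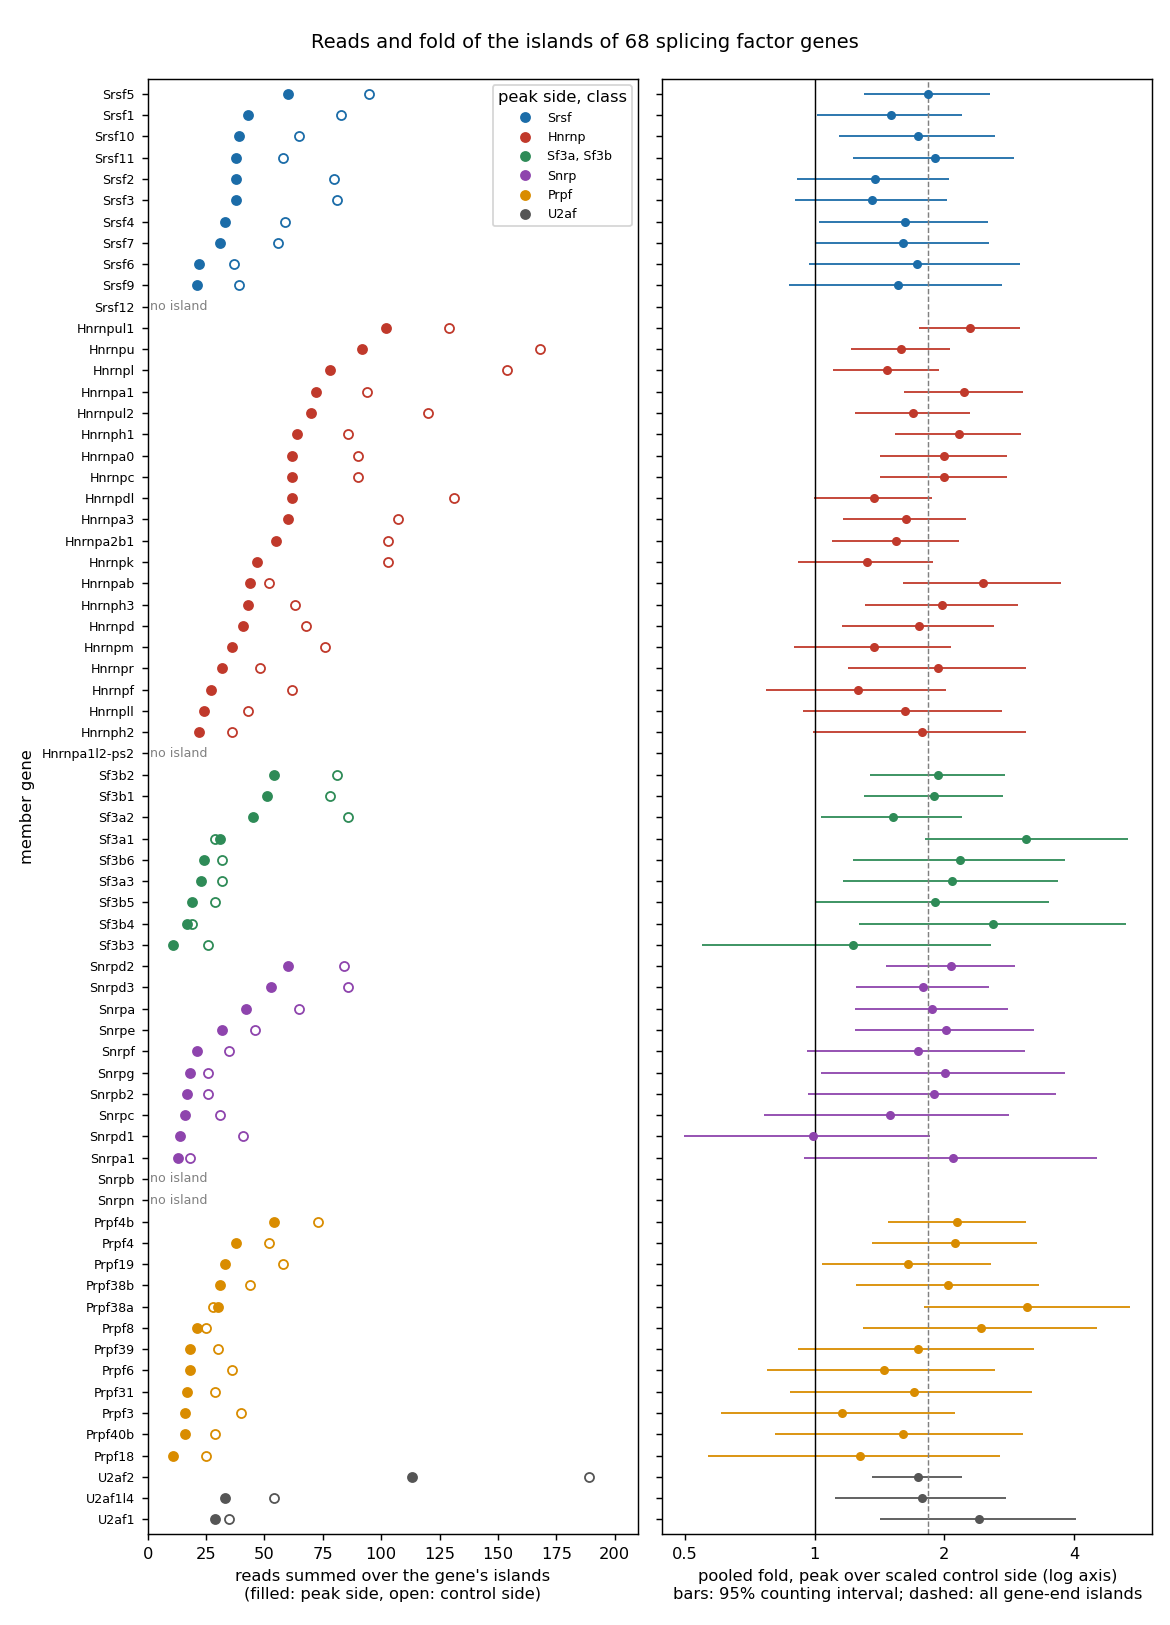
Left, peak-side (filled) and control-side (open) reads summed over the islands of each of 68 of the 69 genes, by class; right, the pooled fold on a log axis with its 95% counting interval, the line at 1 and the pooled fold of all gene-end islands (1.83, dashed). Reads run from 11 (Prpf18, Sf3b3) to 113 (U2af2) on the peak side, and the fold interval of each of the 64 plotted genes with an island includes the dashed line.

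The islands of some related genes differed in reads. For 11 pairs of related genes, chosen after their values were seen, the most-read island of each gene was compared, and in 5 the counting interval of the ratio excluded 1 on both sides of the table in the same direction. Hnrnpl had 78 peak-side reads and Hnrnpll 24, a ratio of 3.25 (2.03 to 5.37), and the control-side ratio was 3.58 (2.54 to 5.15). Hnrnph1 exceeded Hnrnph2, which lies on the X chromosome, by 2.91 (1.77 to 4.96) and 2.39 (1.60 to 3.63), and Snrpa exceeded Snrpb2 by 2.47 (1.38 to 4.63) and 2.50 (1.56 to 4.11). Srsf1 exceeded Srsf9 by 2.05 (1.19 to 3.63) and 2.13 (1.44 to 3.20), and Hnrnpdl exceeded Hnrnpd, with ratios of Hnrnpd to Hnrnpdl of 0.661 (0.435 to 0.997) and 0.519 (0.381 to 0.701). Wider islands can hold more reads: the Hnrnpl island measured 6200 bp and that of Hnrnpll 2400 bp, with 12.6 and 10 peak-side reads per kb. The Snrpa island was the narrower of its pair, at 1000 bp against 2600 bp. The islands of Hnrnpll, Hnrnph2, Snrpa, Hnrnpd and Hnrnpdl were shared with a neighbouring gene, whose reads cannot be told apart from theirs. Other pairs were not told apart, among them Hnrnpul1 and Hnrnpul2 (71 and 70 peak-side reads, ratio 1.01, 0.719 to 1.43) and U2af1 and U2af1l4 (0.879, 0.515 to 1.49). Srsf12, the relative of Srsf10, had no island, and the nearest (71 and 117 reads) lay 14.1 kb from it, assigned to Pnrc1. Hnrnpa1l2-ps2, listed as protein-coding but named as a pseudogene, had none either.

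**Figure D5:**
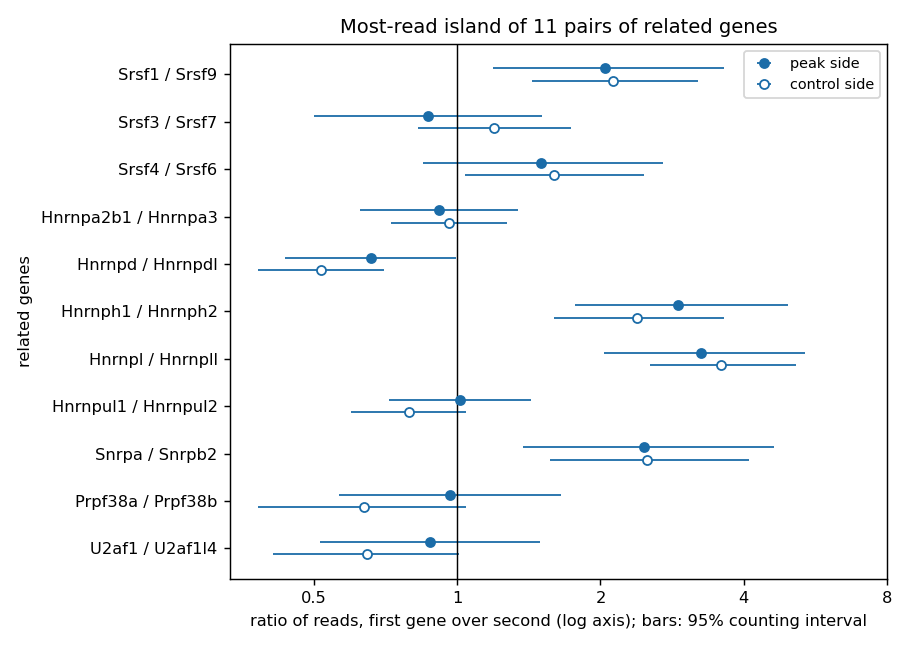
Ratio of reads (log axis) between the most-read islands of 11 pairs of related genes, first over second, on the peak side (filled) and control side (open), with 95% counting intervals. Of these pairs, Hnrnpl over Hnrnpll has the largest peak-side (3.25) and control-side (3.58) ratio.

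Most splicing genes outside these symbol prefixes had an island as well, 75 of 79 (94.9%), and 70 (88.6%) had one at a gene end. Of 36 further spliceosome genes, all had an island, and 33 (91.7%) had a called one in the authors' deposited table, against 46.3% of all genes. The 4 exon junction complex genes Eif4a3, Magoh, Rbm8a and Casc3 all had one. Of 39 regulators, 35 (89.7%) had an island and 30 (76.9%) had one at a gene end. The single islands with the most peak-side reads were those of Khdrbs1 (87 and 94 reads, fold 2.68, 1.98 to 3.63) and Ptbp1 (80 and 126 reads, 1.84, 1.37 to 2.46), the polypyrimidine tract binding protein. The 4 without were Celf2, Nova1, Rbfox1 and Elavl4, of which Nova1, Rbfox1 and Elavl4 are known as neuronal regulators, while the neuronal genes Rbfox3 and Celf4 had 1 island each, of 12 and 10 peak-side reads. Over the 79 genes the pooled fold was 1.86 (1.77 to 1.95) and the median island had 26 peak-side reads, against 28.5 for the splicing factor genes described above.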

How the data were processed

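DNase-seq maps open chromatin from the ends of DNA cut by DNase I. The submitters' processing notes list Bowtie2 2.4.2, SICER 2.0 and build mm10. The sources used here do not say how reads with several matches were treated, whether replicates were pooled or which libraries form each side. The authors deposited read counts per island without normalization, a fold (ratio) of the sides, a p-value and an FDR. The fold was recomputed from the counts for 16573 of 16584 islands (relative tolerance 1e-05), the other 11 having 0 control-side reads, and recomputed calls matched the deposited ones in all 16584.

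Genes and starts came from RefSeq tables of GRCm38.p6, the assembly mm10 names, which hold no exons, so islands are placed by gene ends and starts only. Positions are 1-based. All 69 symbols matched the gene table and 60 the promoter table. Motifs were searched in the 250 bases before each start. An NRF-family motif was searched as well and is not reported here. Planned genotype models were not run, since no column is tied to a library. Members and lists were chosen with earlier results of these data known, and motifs, gene pairs and shared islands were examined after seeing the values. Named genes are, per class, up to 4 with the most peak-side reads, every member without an island, members with 3 islands, the 5 widest islands, the 5 largest and 5 smallest folds at or above the median reads, and islands nearest the 50 kb limit; others are named to complete a complex or pair. A few items are not reported here. Assignment and intervals were tested on simulated data. Analyses used Python 3.11.15, pandas 2.3.3 and scipy 1.17.1.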

Additional observations from a re-analysis of the deposited data

How the results depend on the processing

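Genes with an island numbered 65 of 69 within 10 kb, at any distance and in gene bodies, 58 with called islands alone, 57 when each island went to the gene end nearest its centre, and 48 with at least 20 peak-side reads. That read minimum left 4 of 12 Snrp and 7 of 13 Prpf genes. Under it 69.6% of the splicing factor genes kept an island, against 33.7% of all protein-coding genes. The scaling of the control side decided calls and folds. With the control side scaled to equal totals over all islands, 4 of the 80 islands (5%) passed in place of 66, with 9.19% of all islands passing, and the pooled fold was 0.931 in place of 1.78 (all islands 1). With the median ratio as the scale, 2 (2.5%) passed, with 6.61% of all islands passing, and the pooled fold was 0.886 (all islands 0.952). Both scalings set the table's centre near 1 by construction. Per kb of island the median was 13.8 peak-side and 23.0 control-side reads, against 10.6 and 15.6 over all islands. Of the alternatives run for the 7 main results, 23 stayed within the limits set for each value, 4 moved past them and 2 reversed, and the values of these 6 are those just given. Gene-end islands that are not shared, an alternative chosen after seeing the data, had medians of 2000 bp, 27 and 40 reads. No paired analysis was possible because neither read column names a replicate, and leave-one-out fits, TMM and DESeq2 fits and filters for the genotype comparison were not run. Depth limits single islands: 28 of 80 (35%) had under 20 peak-side reads, against 56.4% of all islands. The median ratio of an interval's bounds over the 80 was 2.84.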
